A study of Mus musculus with 13 samples.

Results

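6 miRNA genes known from somatic cells of the testis and its vessels, Mir143, Mir145a, Mir126a, Mir202, Mir199a-1 and Mir204, were followed through small RNA libraries of sorted mouse male germ cells as a readout of purity. They were chosen by name, with earlier results of these data known. Their reads were taken as the reads of 19 to 25 nt that lie exactly within the GENCODE transcript of each gene. The genes are 6 of the 2201 miRNA genes in the annotation, of which 1464 had at least 1 read in any sample. All 6 genes had reads in 8 of the 9 biological samples, and 5 of the 6 in the pachytene/diplotene sample.

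A miRNA is cut from a hairpin transcript into a short duplex, and the strand kept by an Argonaute protein pairs with target mRNAs mainly through its seed, bases 2 to 8. Many miRNAs are made in few cell types, so their reads can show which cells gave RNA to a sample. Mir143 and Mir145a come from a shared primary transcript and are abundant in smooth muscle. Mir126a lies in Egfl7 and is a marker of endothelium. Mir202 is known from the gonads, in Sertoli cells and also in germ cells, so its reads need not come from somatic cells. Mir199a-1 is known from mesenchymal and stromal cells, and Mir204 lies in Trpm3 and is known from epithelia such as the retinal pigment epithelium.

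The sequences read for 4 of the genes are shown with their seeds (bases 2 to 8) in capitals, since these strands make up the counts that follow. They are RefSeq mature sequences on GRCm38.p6, written 5′ to 3′.
mmu-miR-126a-3p: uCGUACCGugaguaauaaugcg
mmu-miR-202-5p: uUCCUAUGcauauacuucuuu
mmu-miR-202-3p: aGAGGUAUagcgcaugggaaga
mmu-miR-199a-5p: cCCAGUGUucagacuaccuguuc
mmu-miR-199a-3p: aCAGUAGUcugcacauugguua
mmu-miR-204-5p: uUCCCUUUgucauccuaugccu
mmu-miR-204-3p: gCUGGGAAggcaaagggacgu

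No seed was shared between these strands of different genes. In the RefSeq set, the seed of miR-204-5p was shared with miR-211-5p and miR-7670-3p, that of miR-199a-3p with miR-199b-3p, that of miR-202-3p with let-7j, and that of miR-204-3p with miR-7684-5p. On GRCm38, miR-126a-3p lies at chr2:26591402-26591423 on the plus strand, in a hairpin that overlaps an exon of Egfl7 and, on the opposite strand, Mir126b. The strand miR-202-5p lies at chr7:139957732-139957752 on the minus strand, in an exon of the noncoding RNA gene Gm2044. The strand miR-199a-3p lies at chr9:21496498-21496519 on the minus strand, opposite to an intron of Dnm2. The strand miR-204-5p lies at chr19:22750610-22750631 on the plus strand, in an intron of Trpm3. Mir143 and Mir145a lie on the minus strand of chromosome 18 and overlap no other annotated gene.

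The reads of 4 genes came almost wholly from 1 arm. The 3p arm gave 99.5% of the Mir143 reads and 95% of the Mir126a reads, and the 5p arm gave 98.4% of the Mir202 reads and 99.1% of the Mir204 reads. Mir199a-1 gave 71.3% of its reads from the 3p arm, and Mir145a was mixed, with 58.6% from the 3p arm. The full RefSeq form was the commonest read of miR-126a-3p (69.9% of the reads of that arm), miR-202-5p (62.6%) and miR-204-5p (78.7%). For miR-199a-3p, a form of 21 nt that lacks the last base was commoner (50.1%) than the RefSeq form of 22 nt (15.2%). All reads of Mir199a-1 also lie in Mir199a-2 or Mir199b, so its values stand for this family. The reads of the other 5 genes lie in no other miRNA gene, and only 1 antisense read was found beside 470900 sense reads of the 6 genes.

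Germ cells of C57BL6/J mice of 3 to 4 weeks were sorted after staining with the DNA dye Hoechst-33342 into spermatogonia (SG), leptotene/zygotene spermatocytes (LZ), pachytene/diplotene spermatocytes (PD, spelled pachytene/diptotene in the labels) and round spermatids (RS). The single-library set holds 1 sample each of SG, PD and RS and 2 of LZ. The technical-replicate set holds 2 biological samples each of spermatogonia (SG_T) and leptotene/zygotene spermatocytes (LZ_T), each sequenced in a 50-bp and a 100-bp run whose reads were summed here. The labels give no genotype. The summary tables deposited with the technical-replicate set carry a Pld6 knockout tag in their headers, while those of the single-library set do not, and wild-type and Pld6 knockout cells were both part of the study. Pld6 is a mitochondrial surface protein needed to make piRNAs, and its loss was not checked here. The sets also differ in run and depth, so genotype, run and depth cannot be told apart between them. All groups share the strain, the sort and the age range, and the labels do not say how many animals were pooled.

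The samples held 1810805 to 29956080 reads, of which 1.45% to 17.6% were miRNA reads (151495 reads in SG_T 2 to 2195136 in LZ 1). The share of miRNA reads was lowest in PD (1.45%) and RS (1.98%). Values are therefore given as a percent of miRNA reads and, for sums, also as reads per 1000000 reads of the library (RPM). The labelled stages were checked with Mir34c, a miRNA of meiotic and later germ cells. It took 0.0758% of miRNA reads in SG, 1.80% and 1.16% in the LZ samples, 33.9% in PD and 48.7% in RS. In LZ_T it took 0.0541% and 0.0413%, below the single-library LZ samples and near SG_T, with 0.0230% and 0.0211%. The level of Mir34c in LZ_T therefore goes against that at LZ in the single-library set, though both LZ_T samples lay above both SG_T samples. Results from LZ_T are those of the samples labelled so.

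The 6 genes together took 1.82% of miRNA reads in SG, 1.27% and 0.704% in the LZ samples, 0.680% in PD and 0.219% in RS. They took 5.26% and 9.63% in SG_T and 10.8% and 13.1% in LZ_T. The lowest sample of the technical-replicate set thus held a larger share than any sample of the single-library set. Per library, the sum fell in order from 2642 RPM in SG over 930 and 734 RPM in the LZ samples and 98.3 RPM in PD to 43.5 RPM in RS. It was 5402 and 8053 RPM in SG_T and 14326 and 23178 RPM in LZ_T. The group means were 832 ± 138 RPM in LZ, 6727 ± 1875 RPM in SG_T and 18752 ± 6259 RPM in LZ_T (SD, n = 2 each). No test was made on the sum. In a sorted sample, fewer cells of a type and less RNA per cell cannot be told apart.

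**Figure D1:**
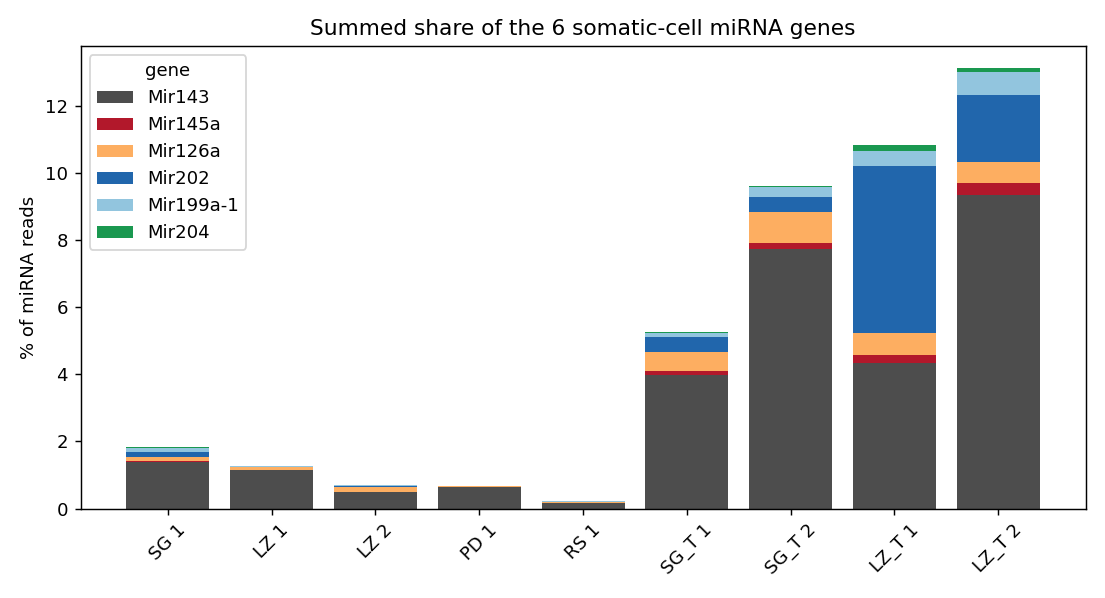
Share of all miRNA reads (y axis, %) taken by the 6 genes in each of the 9 biological samples (x axis), with 1 colour per gene stacked from 0. The 4 samples of the technical-replicate set reach 5.26% to 13.1%, above the 0.219% to 1.82% of the single-library set, and Mir202 makes up much of LZ_T 1.

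Mir143 dominated the sum in most samples. It made up 40.1% of the reads of the 6 genes in LZ_T 1 and 70.8% to 94.0% in the other 8 samples. In LZ_T 1 the largest part was Mir202, with 46.0%. Without Mir143, the other 5 genes took 0.426% of miRNA reads in SG, 0.129% and 0.206% in the LZ samples, 0.0406% in PD and 0.0431% in RS. In the technical-replicate set they took 1.29% and 1.87% in SG_T and 6.50% and 3.80% in LZ_T. Without Mir143, the sum was thus about equal in PD and RS, and higher in both LZ_T samples than in both SG_T samples. Reads of different miRNAs are captured with unequal efficiency, so the order of the genes is one of reads and not of molecules.

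**Figure D2:**
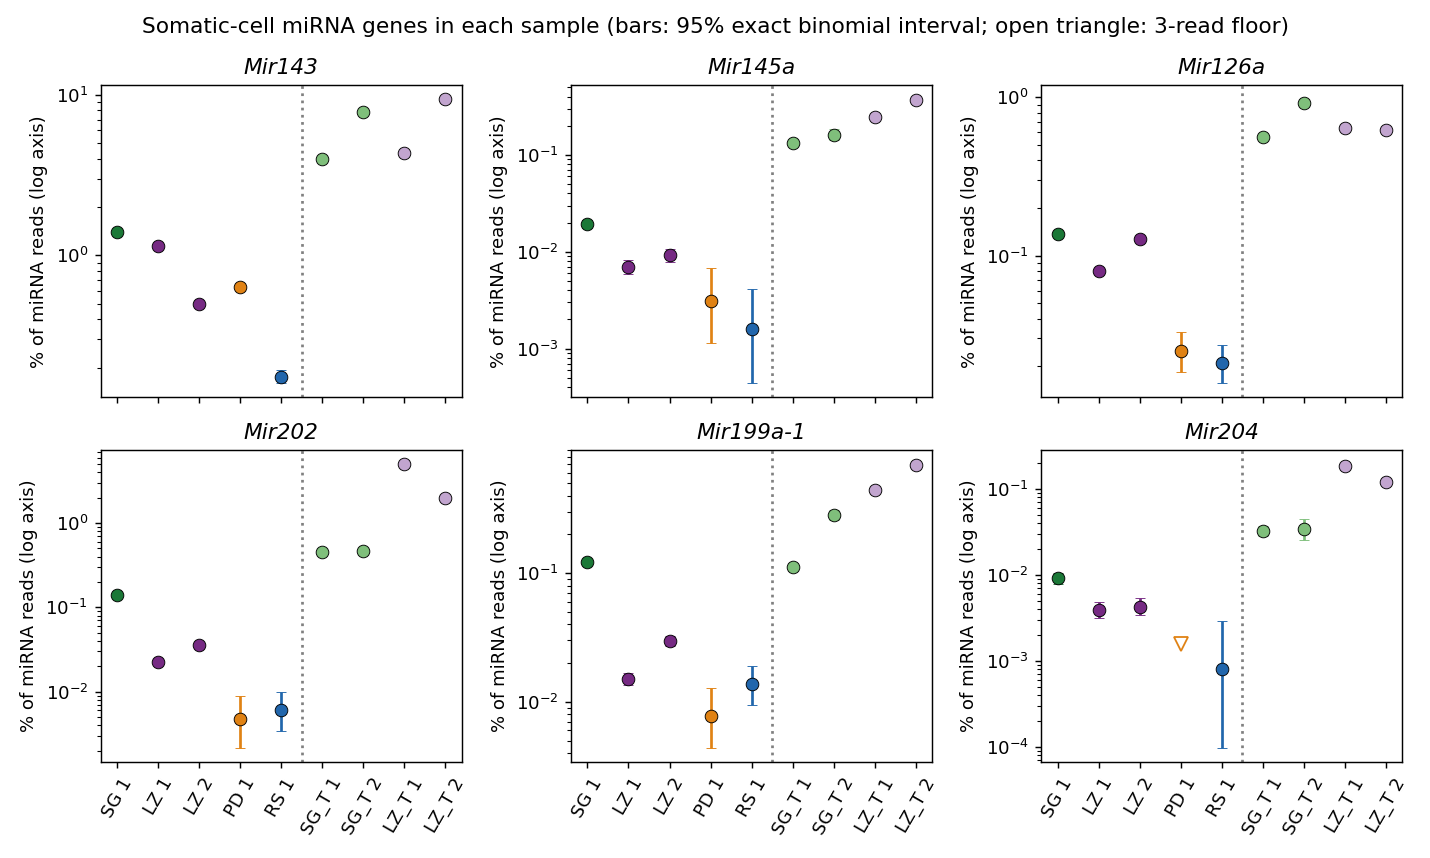
Share of miRNA reads (y axis, %, log scale) of each gene in the 9 biological samples (x axis), with 95% exact binomial intervals that cover counting error only. The dotted line parts the single-library set (left) from the technical-replicate set (right), and the open triangle marks the limit of 3 reads for Mir204 in PD, where no read was found.

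Mir143, of smooth muscle, took 1.40% of miRNA reads in SG, 1.14% and 0.498% in the LZ samples, 0.639% in PD and 0.176% in RS. It took 3.97% and 7.75% in SG_T and 4.35% and 9.34% in LZ_T. PD lay between the LZ samples, and SG_T and LZ_T overlapped. In RS, Mir143 was still read 438 times, so it was the only one of the 6 genes with over 100 reads in every sample.

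Mir145a, the neighbour of Mir143, took 0.0194% in SG, 0.00702% and 0.00917% in the LZ samples, 0.00312% in PD (6 reads) and 0.00161% in RS (4 reads). It took 0.133% and 0.162% in SG_T and 0.246% and 0.368% in LZ_T. Its share in SG was 6.20 times that in PD (95% counting interval 2.82 to 17.0) and 12 times that in RS (4.66 to 44.4). The LZ_T samples lay above the SG_T samples without overlap.

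Mir126a, of endothelium, took 0.136% in SG, 0.0803% and 0.127% in the LZ samples, 0.0250% in PD and 0.0209% in RS. It took 0.559% and 0.924% in SG_T and 0.639% and 0.620% in LZ_T. SG lay just above the higher LZ sample, and both LZ_T samples lay between the SG_T samples. In PD and RS the counts (48 and 52 reads) gave overlapping intervals of 0.0184% to 0.0331% and 0.0156% to 0.0274%.

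Mir202, of the gonads, took 0.139% in SG, 0.0226% and 0.0357% in the LZ samples, 0.00469% in PD (9 reads) and 0.00604% in RS (15 reads). It took 0.451% and 0.469% in SG_T and 4.99% and 2.00% in LZ_T. Both LZ samples were below SG, and both LZ_T samples were above both SG_T samples. LZ_T 1 was the only sample with more Mir202 than Mir143 reads, at 1.15 Mir202 reads per Mir143 read. In the other 8 samples this ratio was 0.00733 to 0.214.

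Mir199a-1, of stroma, took 0.122% in SG, 0.0150% and 0.0299% in the LZ samples, 0.00781% in PD (15 reads) and 0.0137% in RS (34 reads). It took 0.112% and 0.283% in SG_T and 0.439% and 0.695% in LZ_T. It was the only gene whose share in SG lay within the range of SG_T. Both LZ_T samples were above both SG_T samples.

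Mir204 had the fewest reads of the 6 genes over all samples. It took 0.00908% in SG, 0.00392% and 0.00428% in the LZ samples and 0.000805% in RS (2 reads), and no read was found in PD. It took 0.0322% and 0.0343% in SG_T and 0.185% and 0.119% in LZ_T, again without overlap. No read among the 192099 miRNA reads of PD has an exact 95% upper limit of 0.00192%. Against a limit of 3 reads in PD (0.00156%), the share in SG was 5.82-fold higher, with the counting error of SG left out. Against RS the ratio was 11.3 (95% counting interval 3.08 to 93.9).

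From each stage to the next in the single-library set, changes in share of over 2-fold were counted without a test, since SG, PD and RS are single samples. From SG to LZ, Mir145a, Mir202, Mir199a-1 and Mir204 were over 2-fold lower, beside 17.8% of the 775 miRNA genes with enough reads. Mir199a-1 was 5.41-fold and Mir202 4.79-fold lower, while Mir143 (1.70-fold lower) and Mir126a (1.32-fold lower) stayed under that limit. From LZ to PD, 5 of the 6 genes were over 2-fold lower, all but Mir143, beside 35.1% of 741 genes. From PD to RS, 4 genes had enough reads, and Mir143 alone was over 2-fold lower (3.63-fold), beside 26.5% of 479 genes. None of the 6 was over 2-fold higher in any of these steps, beside 16.3%, 32.7% and 9.81% of the genes.

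The share of Mir34c in these samples rose over the same steps, so a share of miRNA reads also depends on the miRNAs that fill the library. In RPM, the steps from SG to LZ and from LZ to PD were larger than in share. Mir143 was 2024 RPM in SG, 836 and 520 RPM in the LZ samples, 92.4 RPM in PD and 34.9 RPM in RS. Mir202 was 202 RPM in SG, 16.6 and 37.2 RPM in the LZ samples, 0.677 RPM in PD and 1.2 RPM in RS. All 6 genes were lower in LZ than in SG and lower in PD than in LZ on this scale. How many of all miRNA genes were so was not counted. miRNA reads were 14.5% of the library in SG, 7.33% and 10.4% in LZ and 1.45% in PD, and RPM also depends on this share. In RPM from PD to RS, Mir143 and Mir145a were lower, and Mir126a, Mir202, Mir199a-1 and Mir204 were not. The counting intervals of PD and RS overlapped for all 6 genes but Mir143 and Mir199a-1 (0.632 to 1.86 RPM in PD, 1.88 to 3.79 RPM in RS).

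Spermatogonia of both sets were set side by side, with 1 sample in SG and no test. Shares were over 2-fold higher in SG_T for 5 of the 6 genes, beside 32.1% of 748 genes, and 0 were over 2-fold lower, beside 27.1%. The mean share in SG_T was 7.62 times that in SG for Mir145a, 5.44 times for Mir126a, 4.20 times for Mir143 and 3.30 times for Mir202. For Mir199a-1 it was 1.63 times that in SG, with SG between the SG_T samples.

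To ask whether the genes differed between stages within the technical-replicate set, LZ_T was compared with SG_T. Mir202 rose by 3.12 ± 0.69 on the log2 scale (SE), 8.71-fold, with 95% limits of 3.39 and 22.3 (edgeR's quasi-likelihood test, Benjamini-Hochberg adjusted p = 0.00252, n = 2 against 2). It was the only one of the 6 genes that passed, beside 6 of 682 genes tested that were higher in LZ_T (0.88%) and 0 that were lower. With unadjusted p under 0.05 there were 135 genes. DESeq2 called 77 higher and 12 lower of the 524 genes it adjusted, and edgeR without TMM scaling called 48 and 6 of 682. Mir202 ranked as the 5th highest of the 682 genes by fold change.

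The other 5 genes did not pass the test in this comparison. The difference was 2.48 ± 0.77 for Mir204 (edgeR adjusted p = 0.0862), 1.98 ± 0.75 for Mir199a-1 (edgeR adjusted p = 0.110) and 1.51 ± 0.75 for Mir145a (edgeR adjusted p = 0.231). It was 0.73 ± 0.56 for Mir143 (edgeR adjusted p = 0.612) and 0.13 ± 0.70 for Mir126a (edgeR adjusted p = 0.943). The 95% limits for Mir126a were a fold of 0.424 and 2.82, so a moderate difference in either direction is within the error. The median over the 6 genes was 1.74, beside 0.21 over all genes tested. Other gene lists, described below, had medians as high or nearly so. These were 1.98 for early germ cells, 1.43 for meiotic germ cells, 1.36 for other stroma and vessel wall and 0.84 for striated muscle. Medians were -0.07 for the X-linked testis cluster, -0.60 for other organs and -0.87 for blood. In shares of miRNA reads, 4 of the 6 genes did not overlap between the groups, all higher in LZ_T, beside 24.7% of 663 genes that were higher and 23.8% that were lower without overlap.

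The call for Mir202 was lost with the replicate number as a block (edgeR adjusted p = 0.209, and 6.08e-07 to 0.774 over the 16 alternatives) and without any 1 of the 4 samples, while the log2 difference was 3.10 with the block. The block called 0 of the 682 genes, and with a sample left out 1 group is a single sample assumed to vary like the other group. Without SG_T 1 its log2 difference was 2.49, without SG_T 2 it was 3.16, without LZ_T 1 it was 2.23 and without LZ_T 2 it was 3.35. With the values scaled to all reads of the library, Mir204 and Mir199a-1 passed too, beside 13.2% of 684 genes that were higher.

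**Figure D3:**
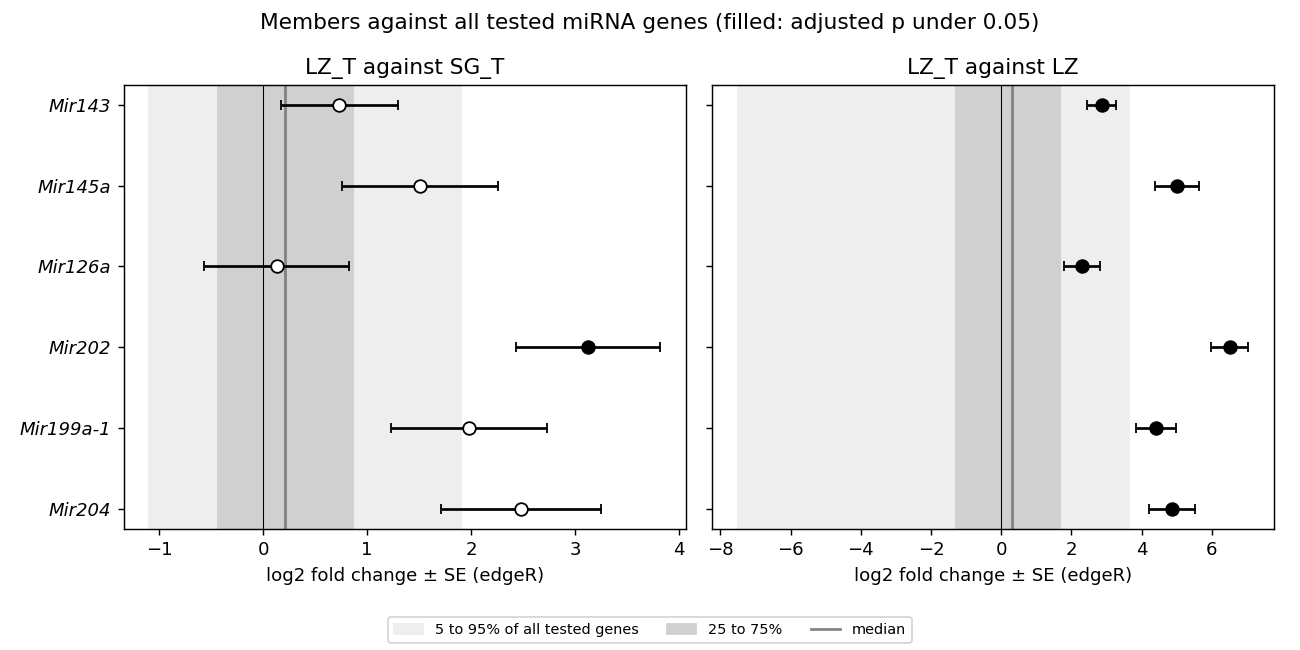
Log2 fold change with its SE (x axis) of each gene (y axis) in LZ_T against SG_T (left) and LZ_T against LZ (right), filled where the edgeR adjusted p was under 0.05. Grey bands hold the middle 90% and 50% of all genes tested; in the right panel 4 of the 6 genes lie beyond the band, and Mir143 and Mir126a lie within it.

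Leptotene/zygotene cells were the only stage with 2 samples in both sets, and LZ_T was compared with LZ. All 6 genes rose, beside 30.1% of 814 genes that were higher in LZ_T and 26.8% that were lower. The log2 difference was 6.51 ± 0.53 for Mir202, 5.0 ± 0.63 for Mir145a, 4.87 ± 0.65 for Mir204 and 4.41 ± 0.58 for Mir199a-1 (SE). It was 2.87 ± 0.41 for Mir143 and 2.31 ± 0.51 for Mir126a. The largest edgeR adjusted p of the 6 was 3.32e-05, for Mir126a (quasi-likelihood test, Benjamini-Hochberg, n = 2 against 2). In folds, Mir202 was 91.0 times as high (95% limits 44.5 and 186) and Mir126a 4.95 times (2.46 and 9.95).

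By fold change, Mir202 ranked 4th, Mir145a 10th, Mir204 13th and Mir199a-1 16th of 814 genes, while Mir143 ranked 94th and Mir126a 132nd. The median over the 6 genes was 4.64, beside 0.30 over all genes tested. In shares of miRNA reads, both LZ_T samples were above both LZ samples for all 6 genes, beside 45.3% of 774 genes with the same order and 35.4% with the opposite one. Scaled to all reads of the library, 375 genes were higher and 140 lower, against 245 and 218 with the main scaling, and the 6 genes were higher in both. Without LZ 1, 99 genes were higher and without LZ_T 1, 146, with all 6 genes called in each. With the 50-bp runs of LZ_T alone, which match the run length of LZ, the log2 differences were 6.20 for Mir202, 4.78 for Mir145a and 2.34 for Mir126a. Mir34c fell by 5.27 ± 0.53 in this comparison, and its part in these differences was not tested.

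Related miRNAs were counted from lists of other cell types. Of 11 other miRNA genes of stroma and vessel wall, 8 could be tested in LZ_T against LZ, and 6 were higher and 0 lower, beside 30.1% and 26.8% of all 814 genes. The 3 of them with the most reads were Mir22 (2.16 ± 0.47), which passed, and Mir21a (0.12 ± 0.40) and Mir10a (-0.03 ± 0.50), which did not. Mir199a-2 and Mir199b are 2 of these 6 but share the reads of Mir199a-1 and add no evidence of their own. From SG over LZ 1 and 2 to PD and RS, the summed share of this list was 2.44%, 2.15%, 2.41%, 2.64% and 2.25%. In share, it thus did not fall in order with stage. Both LZ_T samples (4.59% and 4.64%) lay between the SG_T samples (4.48% and 5.94%). In RPM the list was lower in PD (381) and RS (446) than in SG (3534). It was higher in LZ_T (6063 and 8185 RPM) than in SG_T (4604 and 4969 RPM). Mir21a held most of its reads. Of 6 genes of striated muscle, 5 were tested and all 5 were higher, among them Mir1a-1 (2.33 ± 0.54) and Mir133a-1 (6.26 ± 0.64), although the copies of Mir1a and of Mir133a share reads. The summed share of the muscle list was 0.0557% and 0.0789% in LZ and 0.346% and 0.498% in LZ_T, and its part in the differences of the 6 genes was not tested.

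The 8 miRNA genes of blood took 0.0323% to 0.123% of miRNA reads, with 0.0640% and 0.116% in LZ and 0.0700% and 0.0512% in LZ_T. Mir451a, of red cells, had 0 reads in RS, 1 in PD and 111 at most, in SG_T 1. Its reads were 4 and 1 in LZ and 51 and 70 in LZ_T, a log2 difference of 4.91 ± 0.92 that passed edgeR's test. Mir144, of red cells too, rose by 3.41 ± 1.2. Mir486 (-0.23 ± 0.64) and Mir142 (0.58 ± 0.47), of the same list, did not pass. Mir146 held most of the blood reads in LZ, with 1235 and 1735, and fell by 2.04 ± 0.56. In LZ_T against LZ, 4 of the 8 were higher and 1, Mir146, was lower, to be read, like the counts that follow, against the 30.1% and 26.8% of all genes. All 4 tested genes of the meiotic list were lower, and of the 17 genes of the X-linked testis cluster 4 were higher and 9 lower. Of the list of early germ cells, 4 of 6 tested were higher. Of the 8 tested genes of other organs, 1 was higher and 2 lower. The higher one was Mir122 (2.55 ± 0.50), with 0.00538% and 0.00587% of miRNA reads in LZ and 0.0399% and 0.0406% in LZ_T. In SG it took 0.221%, more than Mir126a, Mir202 or Mir199a-1 there, and in SG_T 0.152% and 0.288%. In PD and RS it had 3 and 2 reads. The source of these reads of a gene of another organ was not tested. In LZ_T against SG_T, 0 of the 52 tested genes of these lists passed edgeR's test, with 14 at an unadjusted p under 0.05, and DESeq2 called 6 higher and 2 lower. Over all genes these were 0.88% higher by edgeR, 135 of 682 at an unadjusted p under 0.05, and 77 higher and 12 lower of 524 by DESeq2. Mir34c differed by 1.43 ± 0.67 there (edgeR adjusted p = 0.191).

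Technical replicates of the 4 samples of SG_T and LZ_T were set side by side. The share in the 100-bp run was 1.05 to 1.23 times that in the 50-bp run for Mir143, 1.08 to 1.22 times for Mir202 and 0.840 to 0.919 times for Mir126a. It was 1.07 to 1.23 times for Mir145a and 0.807 to 1.03 times for Mir204. In RPM the runs differed more for Mir143, Mir145a and Mir202, and miRNA reads took a larger share of the 100-bp run in each of the 4 samples. For Mir199a-1 in SG_T 1 they differed less in RPM than in share, at 137 RPM in the 50-bp and 111 RPM in the 100-bp run. Mir143 was 2421 RPM in the 50-bp and 4418 RPM in the 100-bp run of SG_T 1, and 3158 and 6204 RPM in LZ_T 1. Mir202 was 3397 and 7157 RPM in LZ_T 1. In share, Mir199a-1 was lower in the 100-bp run of each sample, at 0.467 times in SG_T 1 and 0.783 to 0.952 times in the other 3. In SG_T 1 this ratio lay below the middle 90% of genes with at least 50 reads in both runs (0.591 to 1.17). Its share there was 0.215% in the 50-bp run and 0.100% in the 100-bp run.

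**Figure D4:**
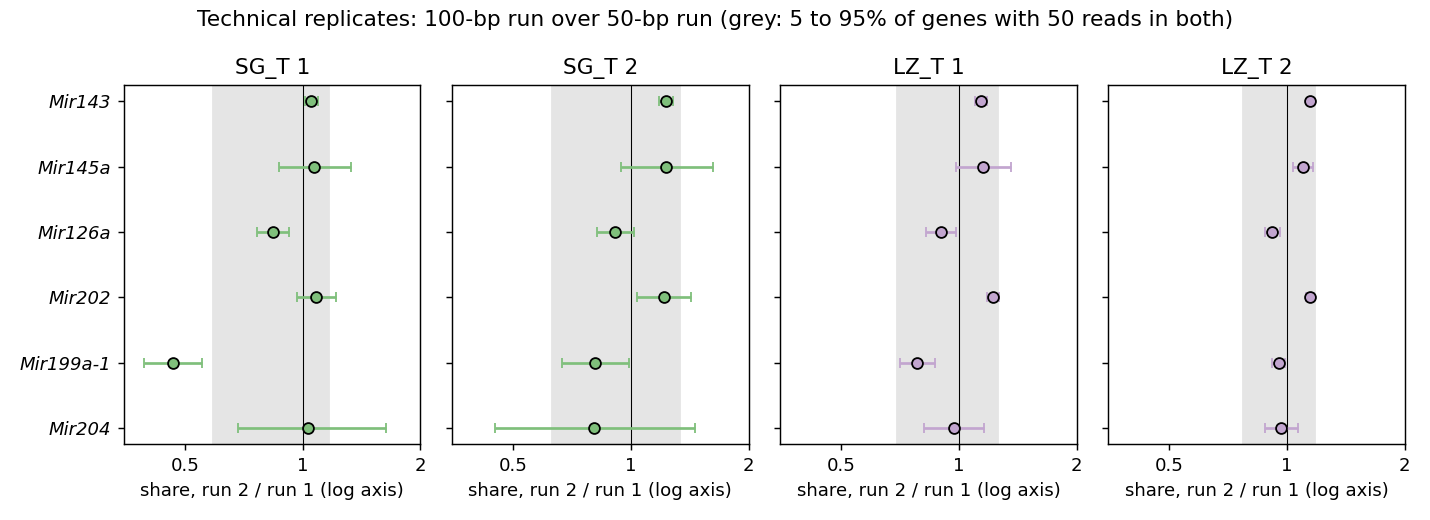
Ratio of each gene's share of miRNA reads in the 100-bp run to that in the 50-bp run (x axis, log scale, with 95% counting intervals) in the 4 samples sequenced in both runs. Grey marks the middle 90% of genes with at least 50 reads in both runs; only Mir199a-1 in SG_T 1, at 0.467, lies outside it.

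The arms of Mir145a were not used in the same proportion in all samples. The 5p arm gave 7.77% of its reads in SG (95% exact interval 5.27% to 11%) and 13.0% and 13.2% in LZ. It gave 42.0% in SG_T 1 (39.0% to 45.1%) but 11.8% in SG_T 2 (8.04% to 16.5%), and 54.8% and 41.6% in LZ_T. LZ and LZ_T did not overlap, and SG_T 2 lay with the single-library samples. In PD and RS all reads were of the 3p arm, but with 6 and 4 reads the upper limits were 45.9% and 60.2%. The number of Mir143 reads per Mir145a read was 54.3 to 205 in the single-library set and 17.7 to 47.7 in the technical-replicate set. Genes of a shared primary transcript thus did not keep a fixed ratio of reads.

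**Figure D5:**
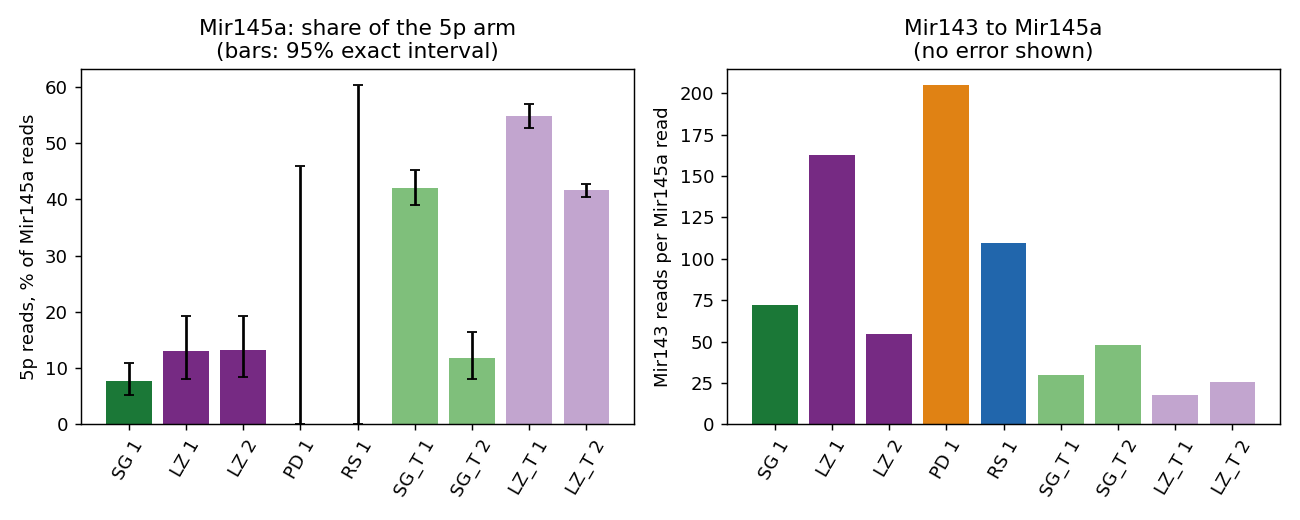
Left, percent of Mir145a reads from the 5p arm (y axis) in each sample, with 95% exact binomial intervals; it is highest in LZ_T 1 (54.8%), and PD and RS hold too few reads to place. Right, Mir143 reads per Mir145a read (y axis), which range from 17.7 in LZ_T 1 to 205 in PD.

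Across the 9 samples, which share sets, runs and depth, the log2 shares of miRNA reads of the 6 genes had Pearson's r of 0.817 (Mir143 and Mir204) to 0.970 (Mir145a and Mir126a) with each other. Many other genes were as alike: among 678 genes, Mir204 ranked 79th for Mir143, and Mir143 ranked 132nd for Mir204 and 80th for Mir202. The genes most alike to each were Mirlet7d for Mir143 (r = 0.961), Mir574 for Mir145a (0.975) and Mir27a for Mir126a (0.992). They were Mir342 for Mir202 (0.989), Mir125b-2 for Mir199a-1 (0.974) and Mir3068 for Mir204 (0.989). Each was the highest of up to 678 genes compared.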

How the data were processed

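The authors deposited, for each of 13 libraries (TruSeq Small RNA kit, adapters trimmed; cutadapt is named in the submitters' processing notes), a list of distinct sequences with raw read counts. A second table of repeat-mapped values was not used. The list of SG held 1 line without a count, which was left out. Reads of 19 to 25 nt that lay exactly within a GENCODE M21 miRNA transcript (GRCm38, sense strand) were counted in full for each such gene. Counts of technical replicates were summed, which gave 9 biological samples. Members and gene lists were chosen with earlier results of these data known. Named genes are the 6 members and the gene most alike in pattern. Where values are given for a list, its 3 genes with the highest share are also named (Mir133a-1 and Mir1a-1 among them). Mir34c, Mir122, Mir451a, Mir144 and the seed sharers were named after their values were seen.

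Groups of 2 samples were compared with edgeR 4.0.16 (quasi-likelihood test, TMM, miRNA reads as library size, filterByExpr, threshold 0.05) in R 4.3.3, with Benjamini-Hochberg adjustment over all miRNA genes tested. DESeq2 1.42.0 and limma 3.58.1 were alternatives. In the main fits, the quasi-likelihood fit found no spread of its own for single genes and used 1 trend for all. SEs were taken from its F statistic, and 95% limits from these SEs with the normal distribution. The p-values, SEs and 95% limits of these fits therefore do not carry a gene's own replicate spread. On simulated counts, 5.26% of planted log2 changes of 2 were recovered for LZ_T against SG_T (648 genes) and 63.9% for LZ_T against LZ (794 genes). A permutation test planned for the sum of the members was left out, since the members were chosen with results known; an exact permutation test of 2 against 2 samples cannot go below p = 0.333. Intervals are 95% exact binomial and, like the floor of 3 reads for a count of 0, cover counting error only, as PCR reads are not independent molecules. Replicates correlated at Spearman's 0.903 to 0.972 and differed beyond sampling noise.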

Additional observations from a re-analysis of the deposited data

Results flagged for a closer look

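For 4 of the 6 genes, the step from spermatogonia to leptotene/zygotene cells went opposite ways in the 2 sets: both LZ samples lay below SG, and both LZ_T samples above both SG_T samples, in shares of miRNA reads and in RPM. The log2 step in share was -2.26 in the single-library set and 2.92 in the technical-replicate set for Mir202, a difference of 5.18. For Mir199a-1 the steps were -2.44 and 1.52, a difference of 3.96. For Mir204 they were -1.15 and 2.19, a difference of 3.34, and for Mir145a -1.26 and 1.06, a difference of 2.32. The difference between the sets was not tested, since SG is a single sample. How many of all miRNA genes went opposite ways in the sets was not counted. Both LZ_T samples lay above both SG_T samples in share for 24.7% of 663 genes.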

How the results depend on the processing

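LZ_T against LZ called all members it could test (6, or 5 where only reads of 1 gene were used, since Mir199a-1 has none) under each of 17 alternatives. The replicate numbers were not shown to pair the samples: same-numbered samples deviated with a correlation of 0.577 in LZ_T against SG_T and -0.185 in LZ_T against LZ. With the replicate block, 0 members were called in LZ_T against SG_T and 6 in LZ_T against LZ, where 186 genes were higher and 183 lower; a crossed pairing, added after seeing the data, gave 264 and 218. In LZ_T against SG_T, 1 member was called in the main fit, and 3 with all library reads, DESeq2 or all 9 samples, 2 with limma (added after seeing the data) or reads of 1 gene only, and 0 with any 1 of the samples left out. There the count of all genes higher in LZ_T ranged from 0 to 90 and of lower ones from 0 to 23, with 13 higher by limma. In LZ_T against LZ they ranged from 93 to 375 and from 97 to 242.

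Mir143 and Mir126a had no stable direction in LZ_T against SG_T. Mir143 was at -0.24 with technical replicate 1 alone, -0.29 without SG_T 1 and -0.52 without LZ_T 2. Mir126a was at -0.24 without TMM, -0.016 with DESeq2, -0.039 with all 9 samples, -0.40 with reads of 1 gene only, -0.73 with technical replicate 1 alone, -0.30 with 18 to 26 nt, -0.23 with 21 to 23 nt, -0.80 without SG_T 1, -0.15 without LZ_T 1 and -0.30 without LZ_T 2. With 1 sample left out, Mir143 ran from -0.52 to 1.31 and Mir126a from -0.80 to 0.55.

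Without Mir143, the log2 ratio of the summed RPM moved from 1.48 to 2.40 (LZ_T over SG_T), from 4.49 to 5.63 (LZ_T over LZ), from -1.67 to -2.0 (LZ over SG), from -3.08 to -4.72 (PD over LZ) and from -1.18 to 0.54, the other direction, for RS over PD. The ratio of the summed share moved from 0.69 to 1.70, from 3.60 to 4.95, from -0.54 (PD over LZ) to -2.04 and from -1.63 to 0.085 (RS over PD). Per reads of 19 to 25 nt the RPM ratios were -1.41 (LZ over SG), -1.96 (PD over LZ) and -0.81 (RS over PD). With technical replicate 1 alone they were 3.91 (LZ_T over LZ) and 0.83 (SG_T over SG), and with 21 to 23 nt the share ratio of RS over PD was -1.83. With 1 sample left out, share ratios ran from 0.32 to 1.19 (LZ_T over SG_T), 3.24 to 4.09 (LZ_T over LZ), 1.53 to 2.40 (SG_T over SG), -1.37 to -0.52 (LZ over SG) and -0.90 to -0.05 (PD over LZ). Antisense reads gave no ratio, with 1 read in all. The causes were not tested.

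Limits: SG, PD and RS are single samples, PD and RS hold 0 to 52 reads of the members other than Mir143, and the sets cannot be told apart from run, depth and genotype.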
